A study of Homo sapiens with 12 samples.

Results

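The transcripts of the D-type cyclins (CCND1, CCND2 and CCND3) and of their catalytic partners CDK4 and CDK6 were followed in 2 human prostate cancer cell lines treated with palbociclib, an inhibitor of the CDK4 and CDK6 kinases, or with its solvent DMSO. These 5 genes were taken by name from the DU145 count table and by the same gene identifier from the C4-2 table, and they are 5 of the 56747 genes present in both tables. The libraries are total RNA of cells grown in RPMI-1640 medium, labelled C4-2 (a derivative of LNCaP) or DU145 (a line known for lacking functional RB1 protein), each with a palbociclib and a DMSO group and no other genotype or agent named. No label states the dose, the duration or whether replicates are independent cultures. The p-values therefore reflect only variation among the sequenced libraries, and that variation could be purely technical. Of 12 labelled libraries 11 were used, because the column of C4-2 DMSO replicate 3 held only zeros. The C4-2 comparison therefore set 3 palbociclib libraries against 2 DMSO libraries, and the DU145 comparison 3 against 3.

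D-type cyclins are the growth-signal-dependent cyclins of the G1 phase. They bind CDK4 or CDK6, and the active kinase phosphorylates RB1 and its relatives, which releases E2F transcription factors and lets cells enter S phase. INK4 proteins block CDK4 and CDK6 directly, CIP/KIP proteins bind the assembled complexes, and palbociclib occupies the ATP pocket of both kinases. Cyclin D1 is the member most often studied in prostate cancer.

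Library totals were 2608851 to 3489659 counts in the C4-2 table and 16108999 to 16674393 in the DU145 table, so that 3 counts, the limit a count of 0 allows, correspond to 0.86 to 1.15 and 0.18 to 0.186 CPM (each count scaled by its library total). These limits cover counting error only. Markers did not match the C4-2 label in full: the luminal prostate genes KLK3, KLK2, ACP3 and FOLH1 had 0 counts in every library labelled C4-2, CDH1 stood at 0.465 CPM, and the mesenchymal genes FN1 and VIM at 19666 and 1501 CPM. The summed level of 8 fibroblast and mesenchymal markers was 24681 to 24966 CPM with palbociclib and 27083 to 27141 CPM with DMSO in those libraries, and the sum of 6 epithelial markers was 456.5 to 497.2 against 1186 to 1195 CPM. The sum of 5 leukocyte markers did not exceed 2.68 CPM there. In DU145 libraries the epithelial sum was 2068 to 2213 CPM with palbociclib and 3221 to 3563 CPM with DMSO, and the mesenchymal sum 337.0 to 350.5 against 388.6 to 404.2 CPM. KLK3 and KLK2 were at 0 in every DU145 library too, CDH1 was at 1.5 CPM, and the leukocyte sum was 7.34 to 8.03 against 2.68 to 3.9 CPM. The part of these shifts in the results below was not tested, and "C4-2" below means the libraries so labelled. The DU145 libraries numbered 3 stood apart in both groups: the chi-square of counts per degree of freedom was 5.41 to 8.34 against the libraries of their own group, 2.36 and 2.37 between the libraries numbered 1 and 2, and 1.14 to 1.18 within the C4-2 groups.

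The members lie at chr11:69641087-69654474 on the plus strand (CCND1), chr12:4273772-4305350 on the plus strand (CCND2), chr6:41934933-42050357 on the minus strand (CCND3), chr12:57747727-57756013 on the minus strand (CDK4) and chr7:92604921-92836594 on the minus strand (CDK6), in GRCh38 coordinates of the DU145 table. The 2 kinase genes moved together within each line, as described below, and the bases before a transcription start of each are shown here so that the regions can be compared. Both come from RefSeq (GRCh38.p14), are the 250 bases before the start read 5′ to 3′ on the minus strand, and carry in capitals any E-box CACGTG, the site read by MYC and related factors. They lie at chr12:57752311-57752560 for CDK4 and at chr7:92836574-92836823 for CDK6, the outer of 2 windows listed for that gene. The first bases after the CDK4 start were found in 9 of 15 GENCODE transcripts of the gene, and those after the CDK6 start in 1 of 5.
CDK4: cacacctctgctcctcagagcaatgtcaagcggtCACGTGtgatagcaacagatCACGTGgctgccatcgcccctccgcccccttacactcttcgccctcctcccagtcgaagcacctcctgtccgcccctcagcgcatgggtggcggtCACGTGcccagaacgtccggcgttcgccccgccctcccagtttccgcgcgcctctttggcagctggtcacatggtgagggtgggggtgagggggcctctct
CDK6: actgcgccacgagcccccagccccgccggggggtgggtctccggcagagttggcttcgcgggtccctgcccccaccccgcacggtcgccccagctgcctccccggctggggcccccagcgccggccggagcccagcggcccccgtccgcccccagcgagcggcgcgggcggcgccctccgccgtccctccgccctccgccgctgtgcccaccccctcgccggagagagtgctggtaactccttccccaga

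The CDK4 window held 3 E-boxes, which begin 216, 196 and 101 bases before the start. Over the full windows of 300 bases, which add 50 bases after the start, CDK6 held 1 E-box, 30 bases after its start. CACGTG, which reads the same on both strands, occurred in 7.26% of 35116 windows of this length over all genes, and 33 windows (0.094%) held 3 or more matches. The E2F letters TTTCGCGC, TTTGGCGC and TTTCCCGC, searched on both strands, were in neither window and in 2.74% of all windows. The cell-cycle element letters TTTGAA (15.16% of all windows) and the AP-1 letters TGAGTCA (4.95%) were also in neither. The 3 windows listed for CCND3 held none of these letters. A match is a description of sequence and not evidence of binding.

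CCND1 encodes cyclin D1. In C4-2 its level was 966.2, 953.7 and 959.4 CPM in the 3 palbociclib libraries and 428.1 and 428.4 CPM in the 2 DMSO libraries. All palbociclib libraries lay far above both DMSO libraries, and libraries of a group were almost equal. CCND1 rose 2.17-fold, a log2 fold change of 1.12 (SE 0.035, edgeR quasi-likelihood test, Benjamini-Hochberg adjusted p = 5.42e-28). In DU145 it stood at 103.8, 101.5 and 103.5 CPM with palbociclib and 91.6, 89.9 and 96.3 CPM with DMSO. The groups did not overlap, but they were much closer than in C4-2. The log2 fold change of CCND1 in DU145 was 0.18 (SE 0.067, edgeR adjusted p = 0.0314). That call was lost in 4 of the 6 fits that each dropped a library, namely palbociclib replicate 1, palbociclib replicate 2, DMSO replicate 1 and DMSO replicate 2 (adjusted p from 0.0506 to 0.139). It was also lost with library totals as scaling (adjusted p = 0.052) and without the filter on low counts (adjusted p = 0.117), and the adjusted p was 0.00156 with the replicate number as a block. The rise of CCND1 was smaller in DU145 (DU145 log2 change minus C4-2 log2 change -0.91, SE 0.081, edgeR adjusted p = 1.34e-10).

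CCND2, which encodes cyclin D2, was at the edge of detection. In C4-2 it had 1, 1 and 0 counts with palbociclib and 0 and 0 with DMSO. In DU145 it had 0, 0 and 0 counts with palbociclib and 0, 0 and 2 with DMSO. Every library was at or below 3 counts, so the gene did not pass the filter on low counts in either line and no fold change is given. Of the bases of its exons, 13.8% are shared with the gene AC008012.1 on the same strand, which had 0 counts in all 11 libraries.

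CCND3 encodes cyclin D3. In C4-2 its level was 33.2, 28.0 and 29.3 CPM with palbociclib and 57.0 and 63.3 CPM with DMSO. The lower DMSO library was well above the highest palbociclib library. CCND3 fell by 1.04 on the log2 scale (SE 0.114, edgeR adjusted p = 2.68e-10), which is the opposite direction to CCND1. In DU145 the levels were 102.4, 102.1 and 121.7 CPM with palbociclib and 109.1, 103.7 and 124.0 CPM with DMSO. The groups overlapped almost wholly, and in both of them the library numbered 3 was the highest. The DU145 log2 fold change of CCND3 was -0.02 (SE 0.087, 95% interval -0.20 to 0.16, edgeR adjusted p = 0.84). The interval does not reach the C4-2 change, and the difference of the responses was 1.05 (SE 0.158, edgeR adjusted p = 2.8e-06).

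CDK4 is the catalytic partner found in most tissues. In C4-2 it stood at 48.1, 44.8 and 50.9 CPM with palbociclib and 63.6 and 58.4 CPM with DMSO. The groups did not overlap. CDK4 fell by 0.39 on the log2 scale (SE 0.102, edgeR adjusted p = 0.00138), and DESeq2 gave a log2 fold change of -0.39 with an adjusted p of 0.0515, which missed the threshold. In DU145 the levels were 276.0, 282.6 and 296.4 CPM with palbociclib and 194.7, 199.1 and 212.3 CPM with DMSO. Every palbociclib library was above every DMSO library, and the library numbered 3 was the highest of each group. CDK4 rose 1.43-fold in DU145, a log2 fold change of 0.52 (SE 0.065, edgeR adjusted p = 2.36e-06). The difference between lines was 0.94 (SE 0.123, edgeR adjusted p = 2.18e-07).

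CDK6 is the partner best known from blood cells and differentiating tissues. In C4-2 its level was 276.9, 262.6 and 291.3 CPM with palbociclib and 388.3 and 369.1 CPM with DMSO. The palbociclib libraries were all lower, and CDK6 fell by 0.49 on the log2 scale (SE 0.047, edgeR adjusted p = 6.18e-12). In DU145 it stood at 503.9, 478.7 and 460.4 CPM with palbociclib and 323.3, 315.4 and 280.5 CPM with DMSO. The palbociclib libraries were all higher, and in each group the library numbered 3 was the lowest, the reverse of CDK4 and CCND3. CDK6 rose 1.6-fold, a log2 fold change of 0.68 (SE 0.064, edgeR adjusted p = 8.52e-08). The response differed between lines by 1.21 (SE 0.092, edgeR adjusted p = 4.04e-12).

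Of the 4 members that passed the filter on low counts, 4 passed the test in C4-2 (CCND1 higher, the other three lower), where 51.8% of 11943 genes tested did so, 25.2% higher and 26.6% lower. In DU145, 3 of 4 passed, all higher, against 58.1% of 15361 genes, 28.8% higher and 29.2% lower. With such backgrounds, a member passing is no unusual event in either line. The difference between lines passed for 4 of 4, against 33.4% of 18139 genes. That share was 18.4% for a DU145 change above the C4-2 change, as for CCND3, CDK4 and CDK6, and 15% for one below it, as for CCND1. The 18139 genes include genes nearly without counts in C4-2, such as CDKN2B with 0 counts in every C4-2 library. All 4 members were well counted in both lines, so these shares are not shares over genes of like counts and may be too low a background. The number of genes passing in C4-2 was 6184 with edgeR and 3793 with DESeq2. The line is confounded with the table, its depth and its counting, so these and the line cannot be told apart.

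**Figure D1:**
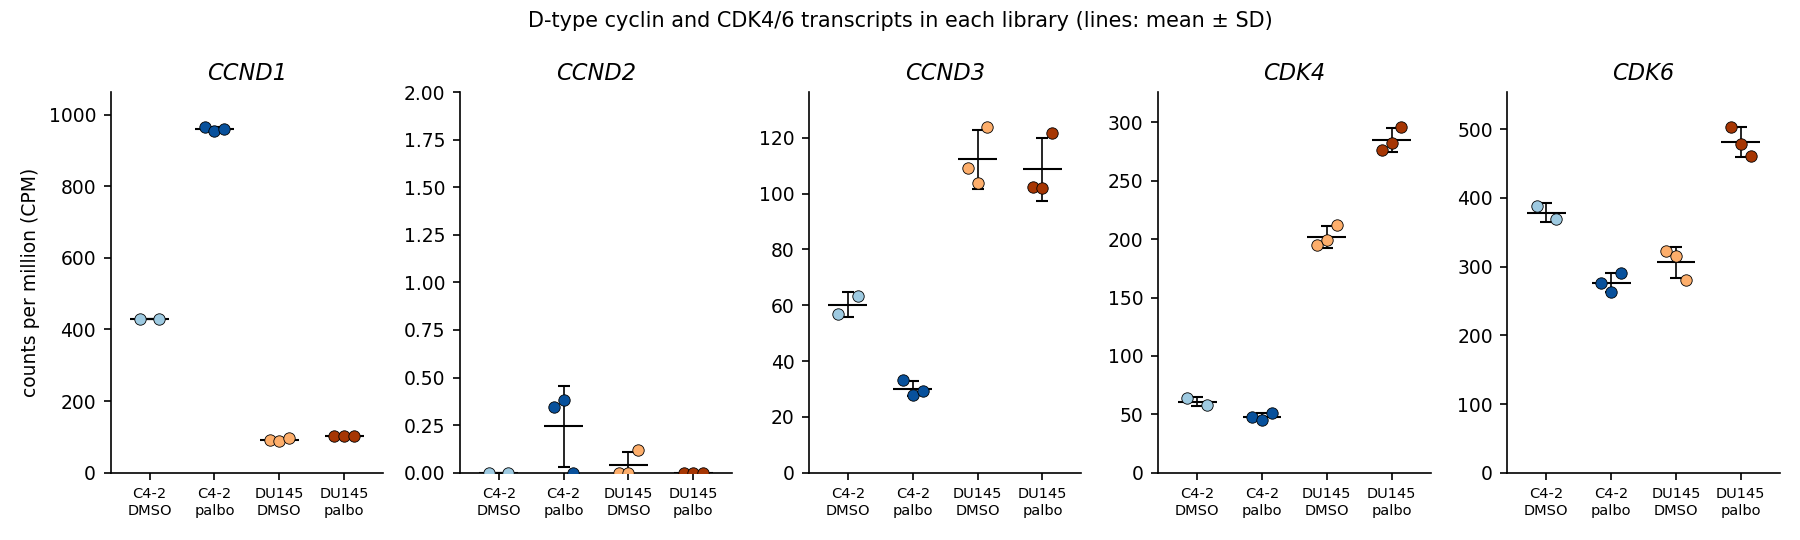
CPM of each member in each library. Points are libraries, horizontal lines are group means and bars are SD (n = 2 for C4-2 DMSO, n = 3 otherwise). Each panel has its own axis from 0: CCND1 in C4-2 moves from 428.3 to 959.8 CPM, CDK4 and CDK6 move down in C4-2 and up in DU145, and CCND2 stays under 0.4 CPM.

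**Figure D2:**
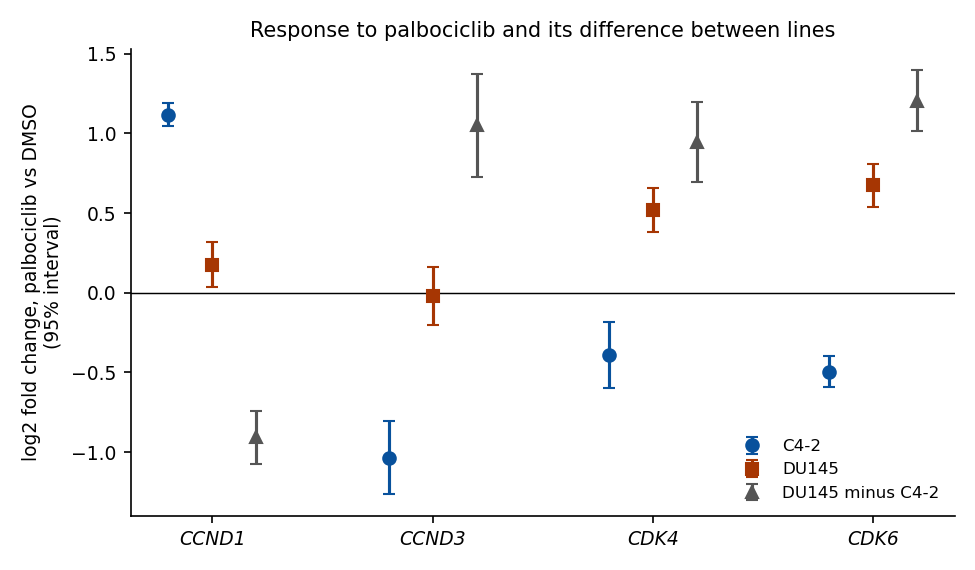
Log2 fold changes for palbociclib against DMSO in each line, and the DU145 change minus the C4-2 change, with 95% intervals from edgeR. The kinases lie on opposite sides of 0 in the 2 lines, and the DU145 interval of CCND3 spans 0.

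Levels of different genes were compared per gene length, as CPM per kilobase of exon. For both lines the lengths were those of the DU145 table, and shared exon bases came from GENCODE. These lengths count the bases of all exons of a gene and not those of a single transcript. The C4-2 counts were made on Ensembl 107 exons. In C4-2 DMSO libraries the order was CCND1 (88.7 ± 0.0445, SD, n = 2), CDK6 (30.9 ± 1.11), CDK4 (19.3 ± 1.17), CCND3 (10.4 ± 0.769) and CCND2 (0). The same order held with palbociclib, where CCND1 reached 199 ± 1.3 (SD, n = 3) and CCND3 was at 5.2 ± 0.47. In DU145 DMSO libraries the order was CDK4 (63.8 ± 2.89, SD, n = 3), CDK6 (25.0 ± 1.86), CCND3 (19.3 ± 1.81), CCND1 (19.2 ± 0.686) and CCND2 (0.0057). CCND3 and CCND1 overlapped there and cannot be ordered, whereas with palbociclib CCND1 (21.3 ± 0.254) and CCND3 (18.7 ± 1.94) did not overlap by a narrow margin. Each set of neighbours other than CCND3 and CCND1 in DU145 DMSO had separate ranges.

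The CDK4 level in C4-2 needs the geometry of its gene. Of the 3168 exon bases of CDK4, 1369 (43.2%) are also exons of TSPAN31, a tetraspanin gene on the opposite strand, and 51.9% of the transcript ENST00000257904.10 is so shared. The C4-2 counts were made from read pairs, without a strand setting and without the option that lets a read count for several genes. Pairs lying wholly in the shared bases are then left unassigned by the default of the tool, while pairs lying partly in them may still be counted. For the DU145 table, no source used here gives the counting. CDK4 levels are therefore not comparable between the tables. With the shared bases taken out of each length, the log2 ratio of CDK4 to CDK6 in C4-2 turned from below to above 0 (given below). TSPAN31 had 57, 45 and 60 counts with palbociclib and 31 and 29 with DMSO in C4-2, and 288, 267 and 266 against 328, 307 and 351 in DU145. It rose in C4-2 (log2 fold change 0.94, SE 0.206, edgeR adjusted p = 0.000189) and fell by 0.27 in DU145 (SE 0.1, edgeR adjusted p = 0.0274), each opposite to CDK4. The DU145 call was lost with DESeq2 (adjusted p = 0.0576) and in 4 of the 6 fits without a single library (palbociclib replicate 2 or 3, DMSO replicate 1 or 3; adjusted p 0.0586 to 0.0949). Its difference between lines was -1.17 (SE 0.226, edgeR adjusted p = 9.93e-05).

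The other members share fewer exon bases: 10.3% of CCND1 with LTO1 on the opposite strand, 0.66% of CDK6 with an antisense gene and 0.41% of CCND3 with a noncoding gene. LTO1 did not pass in C4-2 (log2 fold change 0.28, SE 0.16, edgeR adjusted p = 0.14), and it rose in DU145 (0.41, SE 0.095, edgeR adjusted p = 0.00117). MARCHF9, which overlaps the span of CDK4 but none of its exons, did not pass in either line (0.33 and -0.27, edgeR adjusted p = 0.175 and 0.0812).

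The D-type cyclin pool was measured per length as the share of CCND1 in the sum of the 3 cyclins. In C4-2 this share was 97.4% ± 0.211 (SD, n = 3) with palbociclib and 89.5% ± 0.69 (SD, n = 2) with DMSO, and the groups did not overlap. The share of CCND3 was 2.55% ± 0.208 with palbociclib against 10.5% ± 0.69 with DMSO. The exact permutation p was 0.2 (two-sided), the smallest that 3 against 2 libraries allow, and 0.3 after Benjamini-Hochberg adjustment over the 6 shares tested. In DU145 the share of CCND1 was 54.9%, 54.4% and 50.5% in palbociclib libraries 1, 2 and 3, and 50.2%, 51.0% and 48.2% in the DMSO libraries of the same numbers. It was higher with palbociclib at each replicate number, but the groups overlapped (two-sided exact permutation p = 0.2, adjusted 0.3, where 3 against 3 allow 0.1). Libraries numbered 1 and 2 did not pair clearly by number, and the signs by number were not tested. The summed level of the 3 cyclins was 204 ± 1.76 CPM per kilobase with palbociclib and 99.0 ± 0.814 with DMSO in C4-2, and 40.0 ± 2.05 against 38.5 ± 2.51 in DU145. By these lengths, CCND1 made up nearly the whole pool in C4-2, and CCND1 and CCND3 contributed about equally in DU145. The DU145 balance depends on the lengths used. Without division by length, the CCND3 share there was 51.3% with palbociclib and 54.7% with DMSO. With shared exon bases left out, it was 44.1% and 47.6%. Lengths of the transcripts present in each line were not measured, so which cyclin is higher in DU145 is not settled.

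The balance of the kinases was measured as the log2 ratio of CDK4 to CDK6 per length. In C4-2 it was -0.58 ± 0.017 (SD, n = 3) with palbociclib and -0.68 ± 0.036 (SD, n = 2) with DMSO, without overlap (two-sided exact permutation p = 0.2, the smallest possible). With the exon bases shared with other genes taken out of the lengths, it was 0.23 and 0.12, so which kinase is higher in C4-2 depends on how the overlap with TSPAN31 is handled, while the difference between groups stayed at 0.105. In DU145 the ratio was 1.08, 1.19 and 1.32 in palbociclib libraries 1, 2 and 3, and 1.22, 1.29 and 1.55 in the DMSO libraries of the same numbers. It was lower with palbociclib at each replicate number, while the groups overlapped (unpaired two-sided exact permutation p = 0.4). Here too the signs by number were not tested, and libraries numbered 1 and 2 did not pair clearly. The sum of CDK4 and CDK6 per length was 37.7 ± 2.13 with palbociclib against 50.1 ± 2.28 with DMSO in C4-2 and 129 ± 1.65 against 88.8 ± 1.05 in DU145.

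**Figure D3:**
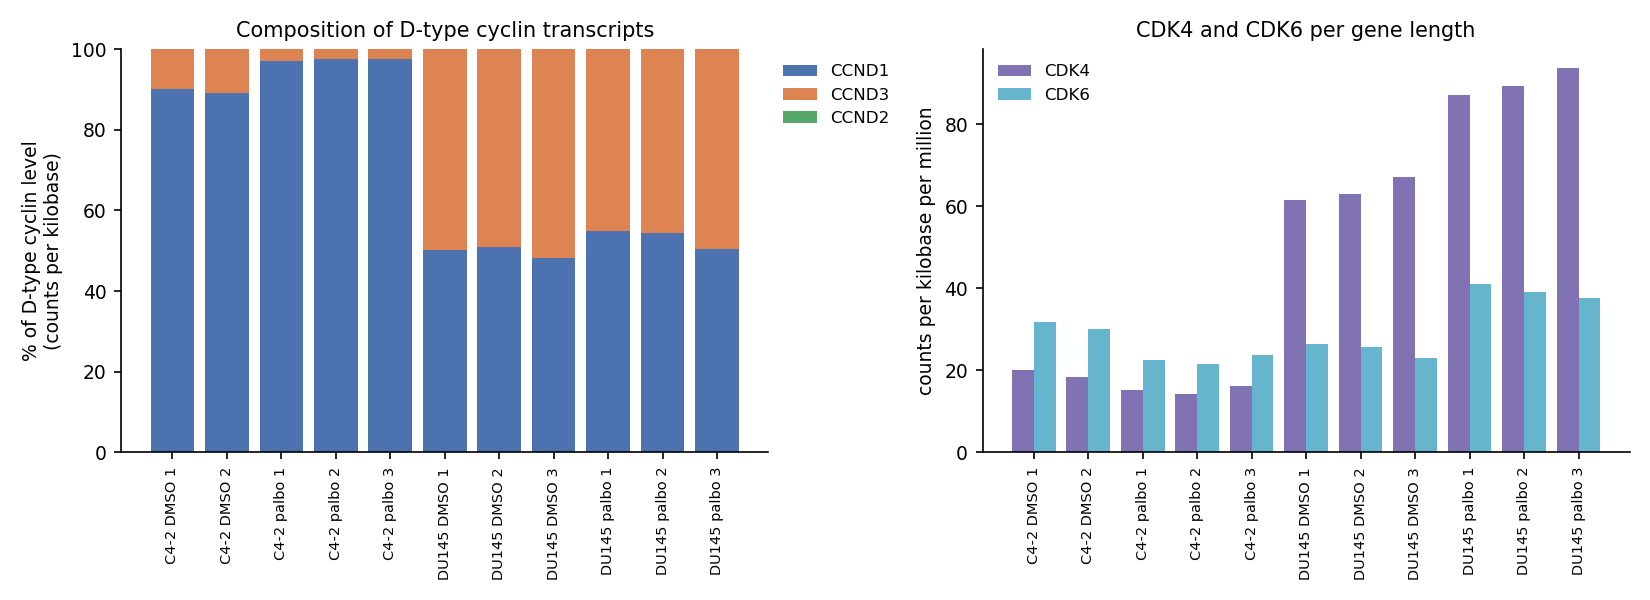
Left, the share of each D-type cyclin in their summed level per kilobase in each library, as stacked bars that add to 100%. Right, CDK4 and CDK6 in CPM per kilobase, as paired bars for each library. CCND1 takes 89.0% to 97.6% of the pool in C4-2 and 48.2% to 54.9% in DU145, and the CDK4 bars of the C4-2 libraries leave out read pairs lying wholly in exon bases shared with TSPAN31.

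The genes around the complex were followed in 8 lists, and the median log2 fold change over all genes tested was 0.00 in C4-2 and -0.01 in DU145. Among the INK4 inhibitors, CDKN2C, which encodes p18, fell in both lines, from 78.7 to 24.8 CPM in C4-2 (log2 fold change -1.71, SE 0.11, edgeR adjusted p = 3.01e-17) and from 134.7 to 61.2 CPM in DU145 (-1.11, SE 0.077, edgeR adjusted p = 1.8e-09). CDKN2D, which encodes p19, rose in DU145 (1.44, edgeR adjusted p = 1.3e-07) and stood at -0.59 in C4-2 (edgeR adjusted p = 0.117). CDKN2A, the p16 and ARF gene, had 0 to 1 counts per C4-2 library and 387 and 416 CPM in the DU145 groups, with no call there (0.13, edgeR adjusted p = 0.204), although the fit with the replicate block called it (0.12, adjusted p = 0.0087). CDKN2B, which encodes p15, had 0 counts in every C4-2 library and fell by 0.23 in DU145 (edgeR adjusted p = 0.0143), a call lost without palbociclib replicate 2 or DMSO replicate 1 (adjusted p = 0.0586 and 0.0725). In all, 1 of 2 tested INK4 genes was lower in C4-2 and none higher, and in DU145 2 of 4 were lower and 1 higher (2 higher without palbociclib replicate 1). The shares over all genes tested were 25.2% higher and 26.6% lower in C4-2, and 28.8% higher and 29.2% lower in DU145.

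Among the CIP/KIP genes, CDKN1A, which encodes p21, rose 1.46 on the log2 scale in DU145, from 182.1 to 494.7 CPM (SE 0.063, edgeR adjusted p = 7.5e-12), and stood at 0.14 in C4-2 (edgeR adjusted p = 0.343). CDKN1C, which encodes p57, fell by 1.43 in DU145 (edgeR adjusted p = 4.2e-10) and was too low to test in C4-2, at 0 to 20 counts. CDKN1B, which encodes p27, fell by 0.64 in DU145 (edgeR adjusted p = 3.47e-07) and stood at 0.1 in C4-2 (edgeR adjusted p = 0.418). Of the tested CIP/KIP genes 0 of 2 passed in C4-2 with edgeR (0 at an unadjusted p under 0.05, and 0 with DESeq2). CDKN1C, untested there in the main fit, was called higher with no filter and with the stricter filter. In DU145 1 was higher and 2 lower of 3. Over all genes tested, 51.8% passed in C4-2 and 58.1% in DU145.

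Of the assembly and activation genes, 3 of 6 tested in C4-2 were lower and none higher (median -0.56), where 26.6% of all genes were lower. SERTAD1 (-0.73, edgeR adjusted p = 0.051), MNAT1 (-0.15, edgeR adjusted p = 0.546) and CCNH (0.02, edgeR adjusted p = 0.949) did not pass there. In DU145 6 of 7 were higher and none lower (median 0.6), where 28.8% of all genes were higher. HSP90AA1 and HSP90AB1, the chaperones that fold CDK4 with the co-chaperone CDC37, stood at -0.71 and -0.7 in C4-2 (edgeR adjusted p = 2.69e-26 and 4.13e-26) and at 0.77 and 0.52 in DU145 (edgeR adjusted p = 2.96e-08 and 1.3e-07). CDC37 fell by 0.43 in C4-2 (edgeR adjusted p = 6.71e-09) and rose by 0.53 in DU145 (edgeR adjusted p = 1.08e-05). CDK7, the catalytic part of the CDK-activating kinase, rose by 0.6 in DU145 (edgeR adjusted p = 1.83e-06) and had only 1 to 23 counts per C4-2 library.

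Turnover genes split in both lines: 3 higher and 3 lower of 12 in C4-2 (median -0.03), and 4 higher and 2 lower of 12 in DU145 (median 0.09). The 6 of 12 that passed in each line stand against 51.8% and 58.1% of all genes, near the background. GSK3B, the kinase that marks cyclin D1 for export and degradation, rose in both lines (0.56 and 0.54, edgeR adjusted p = 1.11e-08 and 1.18e-06). AMBRA1, the substrate receptor that sends D-type cyclins to the proteasome, rose by 0.8 in DU145 (edgeR adjusted p = 4.66e-07) and by 0.28 in C4-2 (edgeR adjusted p = 0.0158). FBXW8, an F-box protein described for cyclin D1, rose by 1.21 in C4-2 (edgeR adjusted p = 3.29e-08). CUL4A, a cullin scaffold, fell by 0.28 in DU145 (edgeR adjusted p = 0.000427). The lower count dropped to 1 in C4-2 with DESeq2, with the replicate block and without palbociclib replicate 3 or DMSO replicate 1, and to 1 in DU145 without palbociclib replicate 3.

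Substrates of the kinase were 2 higher and 4 lower of 9 in C4-2 (median -0.23) and 4 higher and 3 lower of 9 in DU145 (median 0.17), against 51.8% and 58.1% of all genes passing in either direction. RBL1, the p107 pocket protein, fell by 1.72 in C4-2 (edgeR adjusted p = 1.18e-15) and by 0.62 in DU145 (edgeR adjusted p = 1.76e-06). FOXM1, a transcription factor of the G2/M genes, fell by 0.92 in C4-2 (edgeR adjusted p = 1.54e-15) and rose by 0.26 in DU145 (edgeR adjusted p = 0.00307). RBL2, the p130 pocket protein, rose by 0.71 in C4-2 (edgeR adjusted p = 1.29e-06) and fell by 0.26 in DU145 (edgeR adjusted p = 0.00802). TSC2, which restrains mTORC1, fell by 0.67 in DU145 (edgeR adjusted p = 8.16e-06). The higher count of substrates in C4-2 was 1 with DESeq2 and without DMSO replicate 2. The E2F target list, the textbook output of the pathway, had 13 of 14 genes lower and none higher in C4-2 (median -1.97), and 8 lower and 3 higher of 14 in DU145 (median -0.2). Over all genes tested, 26.6% were lower in C4-2, and in DU145 29.2% were lower and 28.8% higher. RRM2, a subunit of ribonucleotide reductase, went from 305 to 43.6 CPM in C4-2 (-2.84, edgeR adjusted p = 1.89e-31), and CDC25A, a phosphatase that activates CDKs, rose by 0.89 in DU145 (edgeR adjusted p = 5.97e-09).

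Regulators of D-type cyclin transcription were 2 higher and 7 lower of 17 in C4-2 (median -0.19) and 9 higher and 1 lower of 18 in DU145 (median 0.35). The 9 of 17 and 10 of 18 that passed are near the 51.8% and 58.1% of all genes. FOSL1, an AP-1 subunit, fell by 0.68 in C4-2 (edgeR adjusted p = 9.71e-11) and rose by 1.37 in DU145 (edgeR adjusted p = 1.75e-09). JUN, its partner, rose by 1.38 in DU145 (edgeR adjusted p = 2.04e-09). ETS2, an ETS family factor, fell by 1.3 in C4-2 (edgeR adjusted p = 4.2e-16) and rose by 0.5 in DU145 (edgeR adjusted p = 8.17e-05). CTNNB1, which encodes beta-catenin, fell by 0.36 in C4-2 (edgeR adjusted p = 5.8e-12) and stood at 0.06 in DU145 (edgeR adjusted p = 0.471). FOXO3, a forkhead factor known to lower cyclin D transcription, rose in both lines (0.52 and 0.62, edgeR adjusted p = 3.36e-08 and 9.87e-07). RELA, an NF-kappa B subunit, rose by 0.84 in DU145 (edgeR adjusted p = 9.86e-08). The higher count in C4-2 was 1 with DESeq2, with either other filter and without palbociclib replicate 2, DMSO replicate 1 or DMSO replicate 2, and the lower count in DU145 was 2 under the replicate block and 0 when palbociclib replicate 1 was dropped. Binding partners and relatives were 3 higher and 1 lower of 5 in C4-2 (median 0.4) and 1 higher and 2 lower of 5 in DU145 (median -0.28). Of all genes tested, 25.2% were higher and 26.6% lower in C4-2, and 28.8% higher and 29.2% lower in DU145. CDK5, a kinase that can bind cyclin D1, was lower in both lines (-0.64 and -1.0, edgeR adjusted p = 0.0112 and 6.07e-06). The C4-2 call of CDK5 was lost with DESeq2 and without palbociclib replicate 1, palbociclib replicate 2 or DMSO replicate 1 (adjusted p 0.0567 to 0.386), which leaves 0 lower. CCNDBP1, among the 3 higher in C4-2 (0.4, edgeR adjusted p = 0.0454), lost its call with DESeq2, with either other filter and in 4 of the 5 fits that left out a library (all but palbociclib replicate 3; adjusted p 0.071 to 0.242 over these settings), which leaves 2 higher. The higher gene in DU145 was CCNDBP1, a cyclin D-binding protein (0.21, edgeR adjusted p = 0.0431), and it lost its call in each of the 6 fits that left out a library (adjusted p 0.0504 to 0.123), whereas the replicate block gave 2 higher genes.

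**Figure D4:**
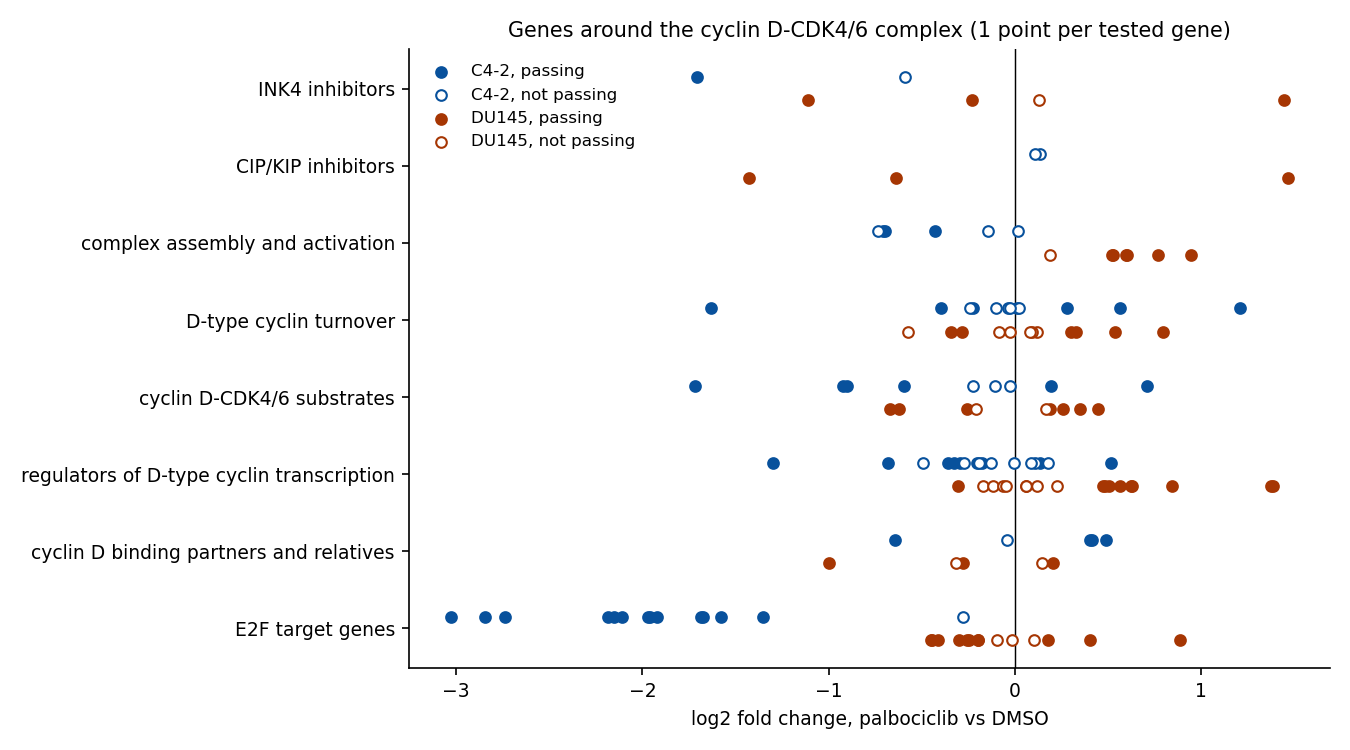
Log2 fold changes for palbociclib against DMSO of every tested gene of the 8 lists, with C4-2 above and DU145 below in each row, filled where the edgeR adjusted p is under 0.05. The 3 assembly and activation genes that passed in C4-2 lie left of 0 and the 6 that passed in DU145 right of 0, and the E2F targets reach -3.03 in C4-2.

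Genes whose pattern was most like that of each member were found over all 11 libraries among 8207 genes with a mean of at least 10 CPM in each line. The measure was the root mean square difference of log2 CPM, scaled by TMM and centred within each line. TRIM25, an E3 ubiquitin ligase, was nearest to CCND1 at 0.031, followed by SLC35F6 (0.061) and LDAF1 (0.064), where the median gene lay at 0.437. SMARCA4, a chromatin remodelling ATPase, was nearest to CCND3 (0.073), followed by RUVBL2 (0.084) and CNN2 (0.089), with a median of 0.402. CFL1, the actin-severing protein cofilin, was nearest to CDK4 (0.056), followed by PSMC4 and EIF4H (both 0.059), with a median of 0.299. METAP1, a methionine aminopeptidase, was nearest to CDK6 (0.042), followed by PHF5A (0.048) and GTPBP4 (0.067), with a median of 0.346. The likeness rests on 4 group means, the libraries share their depth and scaling, and no shared control is read from it.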

How the data were processed

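RNA from libraries labelled C4-2 and DU145 was sequenced after a directional kit. The authors deposited raw read counts per gene, in 1 table per line. Per the file headers, featureCounts 2.0.1 produced the C4-2 counts from read pairs, with Ensembl 107 exons and no strand setting. No source used here gives the counting of the DU145 table, and hg38 is the build in the submitters' processing notes. Genes were filtered with filterByExpr, scaled by TMM and tested with the edgeR 4.0.16 quasi-likelihood F test in R 4.3.3 (Benjamini-Hochberg adjusted p under 0.05), alone in each line and jointly for the interaction, with DESeq2 1.42.0 as an alternative. The scripts were tested on simulated data. 1 marker gene and the sums that hold it are not reported here. Symbols matched 61757 of 61860 and 56668 of 57167 identifiers. CPM used library totals, except in the search for the nearest genes, where log2 CPM was scaled by TMM. Values are mean ± SD. Named were the members, genes overlapping them, up to 4 genes per list and line by adjusted p, and the 3 nearest genes per member. The members and lists were chosen with earlier results of these data known. Same-numbered DU145 libraries deviated together (r = 0.202, 0.327 and 0.56). The main fits and the permutation tests were nevertheless unpaired, and the replicate number entered as a block only in an alternative fit. Numbers 1 and 2 correlated as much across numbers (r = 0.339 and 0.154), so only number 3 was set apart. The C4-2 numbers did not pair (r = -0.017).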

Additional observations from a re-analysis of the deposited data

Results flagged for a closer look

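The response to palbociclib differed between the 2 lines, by the interaction term of the joint edgeR fit, for 4 members. The same term passed for 33.4% of 18139 genes, which include genes nearly without counts in C4-2. The DU145 log2 change minus the C4-2 log2 change was -0.91 for CCND1, which rose less in DU145, 1.05 for CCND3, which fell in C4-2, 0.94 for CDK4 and 1.21 for CDK6, which both fell in C4-2 and rose in DU145. The line is confounded with the table, its sequencing depth and its counting, so these cannot be told apart. No group had enough libraries for a search for single outlying libraries.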

How the results depend on the processing

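All 4 interaction calls, and the calls of CCND1, CCND3 and CDK6 in C4-2 and of CDK4 and CDK6 in DU145, held under every alternative run. DESeq2 gave 3793 genes passing in C4-2 (1800 higher, 1993 lower) and CDK4 at -0.387 (adjusted p = 0.0515). CCND1 in DU145 lost its call with library totals (0.153) and with no filter (0.154), and ranged from 0.146 to 0.213 over the fits without a single library. CCND3 in DU145, never called, ranged from -0.11 to 0.063 there, above 0 without palbociclib replicate 1 (0.027), palbociclib replicate 2 (0.032) or DMSO replicate 3 (0.063). The replicate block gave 0.177 for CCND1, -0.023 for CCND3, 0.521 for CDK4 and 0.677 for CDK6 in DU145, 1.122, -1.006, -0.435 and -0.532 in C4-2, and changed no member's call; among the other genes named it added DU145 calls for CDKN2A (adjusted p = 0.0087) and DMTF1 (adjusted p = 0.015). Leaving out both DU145 libraries numbered 3, an alternative chosen after seeing the data, gave 0.204, -0.031, 0.53 and 0.647 in that order. With counts not divided by gene length, the CCND1 share was 96.9% and 87.7% in C4-2 and 48.7% and 45.3% in DU145 (palbociclib, DMSO), and the log2 ratio of CDK4 to CDK6 was -2.53 and -2.64, and -0.755 and -0.599. With shared exon bases left out, also added after seeing the data, the shares were 97.7%, 90.5%, 55.9% and 52.4% and the ratios 0.229, 0.124, 2.0 and 2.16. CCND2, CDKN2A and CDKN2B were not tested in C4-2, where each had at most 1 count per library.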
